A study of Caenorhabditis elegans with 4 samples.

Results

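The genes described here are the long noncoding RNA genes of Caenorhabditis elegans that carry the name linc, for long intergenic RNA, or anr, for antisense RNA. They were taken as every row of the authors' deposited gene table whose name is linc or anr followed by a number, 190 of 37812 rows, with 143 linc and 47 anr genes. A further 27 rows, in which such a name is joined to another gene name, did not match and were left out of the results below. RNA came from early embryos of the wild-type strain N2, with 2 libraries of sig-7 RNAi and 2 of control RNAi, in which the vector L4440 carries no worm gene. RNAi is named only in the sample titles, and the growth protocol names OP50 bacteria as food for all samples. The sig-7 gene encodes a cyclophilin of the nucleus that also holds an RNA recognition motif. All embryos were mixed stages of 1 to 350 cells, taken from adults grown for 72 h, so a change in the mix of stages and a change in RNA per cell cannot be told apart. Total RNA was depleted of ribosomal RNA rather than selected for poly(A) tails, and it went into a stranded library kit, per the labels' protocols.

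Long noncoding RNAs are transcripts that resemble messenger RNAs in length and often in splicing but hold no long open reading frame. Intergenic ones lie between protein-coding genes, while antisense ones are read from the opposite strand of another gene and so share its DNA. In C. elegans both kinds were catalogued largely from pooled sequencing data of many stages, and for most of them no function is known. A feature of both classes is that levels are low compared with messenger RNAs.

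The authors' deposited table holds 1 pooled value per group in FPKM (fragments per kilobase of transcript, scaled to the mapped fragments), so no value below has a spread of its own, and the depth of the libraries is unknown. Replicate error enters only through the q-value (adjusted p) of the authors' Cuffdiff test, and separate cultures are not stated for the libraries of a group, so it may cover technical spread alone. Below, rose and fell are used where that q was under 0.05. The target itself stood at 8.72 FPKM in sig-7 RNAi and 39.8 FPKM in control RNAi, with q listed as 0 in the authors' deposited table. All 13 early embryo marker genes looked up were tested, with summed levels of 815.7 FPKM in sig-7 RNAi and 629.3 FPKM in control RNAi. Of these 1 rose (nos-2) and 3 fell (skn-1, end-1 and elt-2), where 11.2% of all tested genes rose and 17.3% fell. The 5 sperm markers summed to 0 FPKM in sig-7 RNAi and 0.0330 FPKM in control RNAi, with 4 of them at 0 in both groups. The 3 yolk protein genes of the adult intestine summed to 0.108 FPKM in sig-7 RNAi and 0.0559 FPKM in control RNAi, and col-19 of the adult epidermis stood at 0.0295 and 0 FPKM.

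Most linc and anr genes were at or near 0 in these embryos. Of the 143 linc genes, 22 (15.4%) reached 1 FPKM in at least 1 group, 16 of them in sig-7 RNAi and 19 in control RNAi. Among the 47 anr genes 15 (31.9%) did, 14 in sig-7 RNAi and 14 in control RNAi. Thus 3 linc genes and 1 anr gene reached this level in sig-7 RNAi alone, and 6 linc genes and 1 anr gene in control RNAi alone. Of the 9253 rows of any kind at this level in either group, 332 reached it in sig-7 RNAi alone and 1307 in control RNAi alone. Together 37 of the 190 genes (19.5%) reached it, against 24.5% of all rows. At 10 FPKM or more in either group there were 3 linc and 7 anr genes.

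The anr genes were the more often detected class. A value of 0 in both groups was listed for 61 linc genes (42.7%) and 14 anr genes (29.8%). For comparison, 42.5% of the 16892 rows annotated as protein-coding reached 1 FPKM in either group, and 6.17% of the 6563 other rows annotated as ncRNA. The ncRNA label leaves out noncoding genes annotated under other labels, such as piRNA and miRNA. The linc and anr classes therefore lay between the coding and the ncRNA rows in the share at that level. No test of the difference between linc and anr genes was made, since genes of 1 pooled comparison are not replicates.

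**Figure D1:**
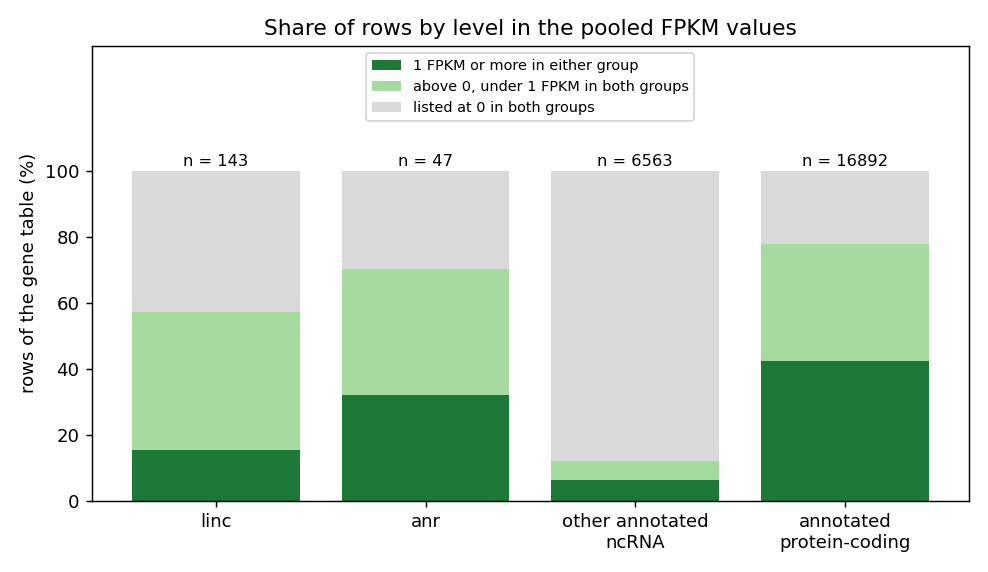
Share of rows of the gene table (%, vertical axis) by their pooled level, for linc genes, anr genes, other rows annotated as ncRNA and rows annotated as protein-coding. Dark green marks rows at 1 FPKM or more in either group (15.4% of linc and 31.9% of anr genes), light green rows above 0 but under 1 FPKM in both groups, and grey rows listed at 0 in both groups.

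Cuffdiff tested 31 linc genes (21.7%) and 20 anr genes (42.6%). The 111 linc and 27 anr genes it did not test had at most 0.453 FPKM in sig-7 RNAi and 0.373 FPKM in control RNAi, and for linc-95 the computation failed. Over all genes tested, 28.4% had q under 0.05, 11.2% higher and 17.3% lower in sig-7 RNAi. Of the tested linc genes 4 passed, of which 1 rose and 3 fell, and 27 did not pass. None of the 20 tested anr genes passed in either direction, and 3 of them (anr-11, anr-15 and anr-16) had an unadjusted p under 0.05 in the authors' Cuffdiff test, as did 6 linc genes and 36.9% of all tested genes. Both shares were below the background, but the genes were also low in level, and 15 of the 51 lie in long deposited loci where almost no gene passed. The part of either in the result was not tested. Among the isoforms tested by the authors 1 anr RNA passed, anr-46, whose row in the gene table is joined to another gene.

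The gene that rose was linc-7 (chromosome X, 16002528 to 16003657 on ce10). Its level was 15.7 FPKM in sig-7 RNAi and 3.53 FPKM in control RNAi. In the sig-7 RNAi libraries this was the highest level of any linc gene with a row of its own. The log2 ratio of 2.15 had a q of 3.27e-09 in the authors' deposited table. The annotation gives linc-7 a single exon of 1130 bases, and in the later WBcel235 annotation all of it lies across C09G1.4, a coding gene on the other strand. In the deposited table the loci of both genes lie 5678 bases apart. C09G1.4 was at 1.29 FPKM in sig-7 RNAi and 0.750 FPKM in control RNAi and did not pass the test (q = 0.241 in the authors' deposited table). linc-7 was thus the higher of the pair in both groups. Whether reads were assigned by strand is not known here, as set out below for the antisense pairs.

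The most abundant linc gene of the control embryos among those with a row of their own, linc-16, fell. On chromosome II (1820248 to 1820952 on ce10), it was at 4.76 FPKM in sig-7 RNAi and 14.5 FPKM in control RNAi, 3.05-fold lower, with q = 0.000123 in the authors' deposited table. In WBcel235, 89.8% of its span lies within fbxa-3 on the same strand and 66.4% lies across fbxc-19 on the other, both genes of the F-box family of ubiquitin ligase adaptors. fbxc-19 fell as well, at 0.458 FPKM in sig-7 RNAi and 9.62 FPKM in control RNAi (q = 6.32e-14 in the authors' deposited table). fbxa-3, at 0.185 FPKM in sig-7 RNAi and 0.906 FPKM in control RNAi, did not pass (q = 0.0580 in the authors' deposited table). The deposited loci of linc-16 and fbxa-3 do not overlap and lie 240 bases apart. Whether reads were divided between these models was not tested.

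The other linc genes that fell were linc-5 and linc-147. linc-5, also X-linked (14018541 to 14019307), was at 2.69 FPKM in sig-7 RNAi and 8.22 FPKM in control RNAi, with q = 0.0411 in the authors' deposited table. Its 2 isoforms were both lower, at 1.53 and 1.15 FPKM in sig-7 RNAi against 3.36 and 4.86 FPKM in control RNAi. Neither isoform passed on its own, as the first had q = 0.329 in the authors' deposited table and the second was marked as having too little data for a test, which Cuffdiff uses for shallow and for complex loci alike. In WBcel235, 92.2% of the span of linc-5 is covered by C04C11.23, a noncoding RNA gene on the same strand. Of tested genes of another kind in loci of 100 kb or less, the nearest was C04C11.9, 10760 bases from linc-5. It was listed at 0 in sig-7 RNAi and at 1.05 FPKM in control RNAi. linc-147 on chromosome III (3672030 to 3674227) stood at 0.0552 FPKM in sig-7 RNAi and 0.556 FPKM in control RNAi, 10.1-fold lower (q = 0.00502 in the authors' deposited table). That gene passed the test below 1 FPKM in both groups, where 14.8% of all tested genes in loci of 100 kb or less did. By the same rule its nearest tested neighbour, C46F11.6, lies 1721 bases away and fell 3.37-fold (q = 0.0101 in the authors' deposited table).

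Among tested linc genes above 0 in both groups, 4 were at least 2-fold higher in sig-7 RNAi and 10 at least 2-fold lower, called ones included. Restricted to loci of 100 kb or less, these counts were 4 and 5. Of the 10098 tested genes of any kind above 0 in both groups, 777 exceeded control by this margin and 2641 were under it. A lean to lower values was thus not particular to the linc genes. linc-44 was at 13.1 FPKM in sig-7 RNAi and 4.47 FPKM in control RNAi (q = 0.175 in the authors' deposited table). linc-94 was at 2.02 FPKM in sig-7 RNAi and 0.512 FPKM in control RNAi, with q = 0.0731 in the authors' deposited table, and linc-20 at 3.38 and 0.639 FPKM in sig-7 and control RNAi (q = 0.264). Of those lower without passing, linc-24 was at 0.0694 FPKM in sig-7 RNAi and 0.568 FPKM in control RNAi, linc-47 at 0.222 and 0.795 FPKM, and linc-77, in a long locus, at 0.732 and 1.99 FPKM. In contrast, linc-9 (6.63 FPKM in sig-7 RNAi and 5.40 FPKM in control RNAi), linc-169 (5.08 and 4.66 FPKM) and linc-4 (3.09 and 2.75 FPKM) differed by under 1.25-fold.

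Genes with a value of 0 in 1 group were shorter at the median than the others. Of the 51 tested genes 7 were listed at 0 in 1 group, 5 of them in sig-7 RNAi, and their annotated mature lengths ran from 131 to 347 bases, with a median of 189. The median length was 478 bases (185 to 3257) in the 44 tested genes with values above 0 in both groups. linc-50, of 222 bases, was listed at 0 in sig-7 RNAi and at 3.14 FPKM in control RNAi (q = 0.0664 in the authors' deposited table). linc-35, of 189 bases, was at 0 in sig-7 RNAi and 2.67 FPKM in control RNAi, while linc-32, of 131 bases, was at 5.41 FPKM in sig-7 RNAi and 0 in control RNAi. No fold is given for these genes. FPKM divides by length, so few fragments give a high value in a short RNA.

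**Figure D2:**
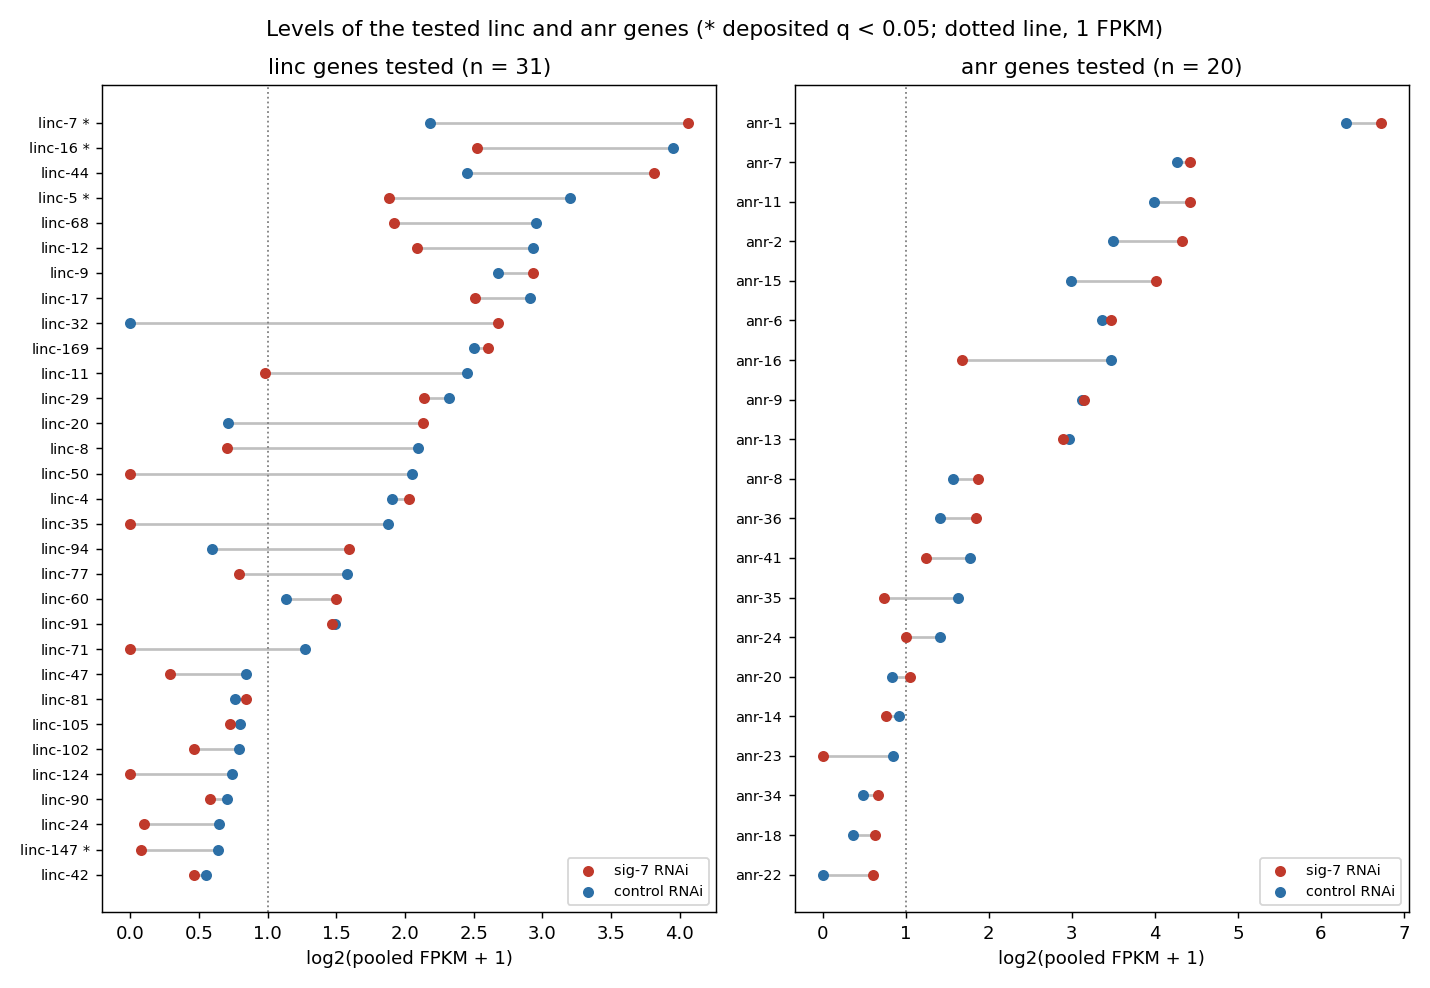
Pooled level of each tested gene, as log2(FPKM + 1) on the horizontal axis, in sig-7 RNAi (red) and control RNAi (blue), with linc genes on the left (n = 31) and anr genes on the right (n = 20), ordered by their higher value. An asterisk marks the 4 genes with a deposited q under 0.05, and the dotted line marks 1 FPKM. Only the linc panel holds marked genes, and anr-1 lies far to the right of all others.

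None of the 5 anr genes highest in level passed the test. anr-1 was the most abundant gene of either class with a row of its own. At 104.4 FPKM in sig-7 RNAi and 77.9 FPKM in control RNAi, it did not pass (q = 0.327 in the authors' deposited table). It lies across set-1, a histone methyltransferase gene, on chromosome III, and set-1 was at 166.6 FPKM in sig-7 RNAi and 133.4 FPKM in control RNAi (q = 0.585 in the authors' deposited table). The next in level were anr-7 at 20.4 FPKM in sig-7 RNAi and 18.2 FPKM in control RNAi, anr-11 at 20.4 and 14.9 FPKM, anr-2 at 19.1 and 10.2 FPKM, and anr-15 at 15.2 and 6.96 FPKM. dvc-1, across from anr-7, was at 56.6 FPKM in sig-7 RNAi and 41.9 FPKM in control RNAi, and Y57A10A.13, across from anr-2, at 72.6 and 32.1 FPKM. The gene across from anr-11, dcaf-1, matched no row by name. For anr-11 and anr-15 the unadjusted p was 0.0359 and 0.0423, and q was 0.104 and 0.119, in the authors' deposited table. anr-6 (10.1 FPKM in sig-7 RNAi and 9.26 FPKM in control RNAi) and anr-9 (7.82 and 7.74 FPKM) were at nearly equal levels in the groups.

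Among tested anr genes above 0 in both groups, the largest fold was that of anr-16, which lies wholly across the X-linked gene sdc-2. In worms SDC-2 brings the dosage compensation complex to the X chromosomes of hermaphrodites. anr-16 was at 2.20 FPKM in sig-7 RNAi and 10.1 FPKM in control RNAi, 4.60-fold lower, but did not pass (p = 0.0250 and q = 0.0777 in the authors' deposited table). sdc-2 itself fell, at 7.95 FPKM in sig-7 RNAi and 33.4 FPKM in control RNAi, with q listed as 0 in the authors' deposited table. The antisense RNA thus stood at 27.6% of the sdc-2 level in sig-7 RNAi and at 30.2% in control RNAi. The deposited table gives anr-16 the locus of the whole pair (chromosome X, 11522673 to 11533058 on ce10), not that of the antisense RNA.

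Antisense position was checked in the WBcel235 annotation, by gene name. Of the 47 anr genes 42 lie across a coding gene on the opposite strand, as do 18 linc genes. For 94 linc genes no other annotated gene overlaps, while 30 overlap a coding gene on either strand; linc-132 had no entry of its name. Some linc genes are thus not intergenic in this later annotation, and anr-24 has no overlapping gene in it. Of the 5 tested linc genes across a tested coding gene, 4 had the same sign of the ratio as the partner. The exception was linc-20, whose partner T25D1.3 was at 1.31 FPKM in sig-7 RNAi and 2.14 FPKM in control RNAi (q = 0.365 in the authors' deposited table).

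Tested anr genes and the coding genes across from them differed in level but mostly had ratios of the same sign. For 16 of 19 pairs the coding gene was itself tested and had a row of its own. In 15 of the 16 pairs the anr gene was the lower one in both groups. The exception was anr-8 (2.64 FPKM in sig-7 RNAi and 1.97 FPKM in control RNAi) and tpra-1 (1.13 and 0.340 FPKM), whose deposited locus is only 192 bases long. The log2 ratio had the same sign in 12 of the 14 pairs with all values above 0, and in 9 of 11 without loci over 100 kb. In 10 of these 11 the log2 ratios of anr gene and coding gene lay within 0.5 of each other.

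Coding partners passed the test 4 times among these 16, with 3 that rose and 1 that fell. That share of 25% is near the 28.4% of all tested genes. Those that rose were add-2, an adducin gene, at 16.5 FPKM in sig-7 RNAi and 9.40 FPKM in control RNAi, ppfr-1, a phosphatase regulatory subunit gene, at 40.1 and 25.5 FPKM, and rbbp-5, a gene of the COMPASS histone methyltransferase complex, at 59.0 and 36.9 FPKM. Their q-values were 0.0282, 0.0145 and 0.0126 in the authors' deposited table. With equal totals the log2 ratios of ppfr-1 and rbbp-5 turned to -0.10 and -0.076, and that of add-2 was 0.056. The antisense genes opposite them were anr-15 (values above), anr-20 (1.07 FPKM in sig-7 RNAi and 0.779 FPKM in control RNAi) and anr-22 (0.526 and 0 FPKM). Those with a ratio of the other sign were anr-13 across skih-2, a gene of the cytoplasmic exosome's helicase, and anr-14 across B0019.2. anr-13 was at 6.41 FPKM in sig-7 RNAi and 6.81 FPKM in control RNAi, and skih-2 at 13.7 and 10.7 FPKM.

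The library kit keeps strand, but the use of strand in the authors' counting was not given in the sources used here. Without strand, reads of an antisense RNA and of the gene across from it cannot be told apart, so the anr values are uncertain to that extent. The same holds for linc-7, linc-16 and the other linc genes with a partner on the opposite strand. Between pairs, the level of the anr gene as a share of its partner ran in sig-7 RNAi from 0.890% for anr-22 to 92.1% for anr-15, leaving out anr-23 at 0 and anr-8 above its partner. Within some pairs the share was nearly equal in both groups, at 56.4% in sig-7 RNAi and 56.4% in control RNAi for anr-9, and 78.0% and 77.1% for anr-6. In others it was not, as for anr-41 at 64.8% in sig-7 RNAi and 39.1% in control RNAi. What part shared reads have in these values was not tested.

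**Figure D3:**
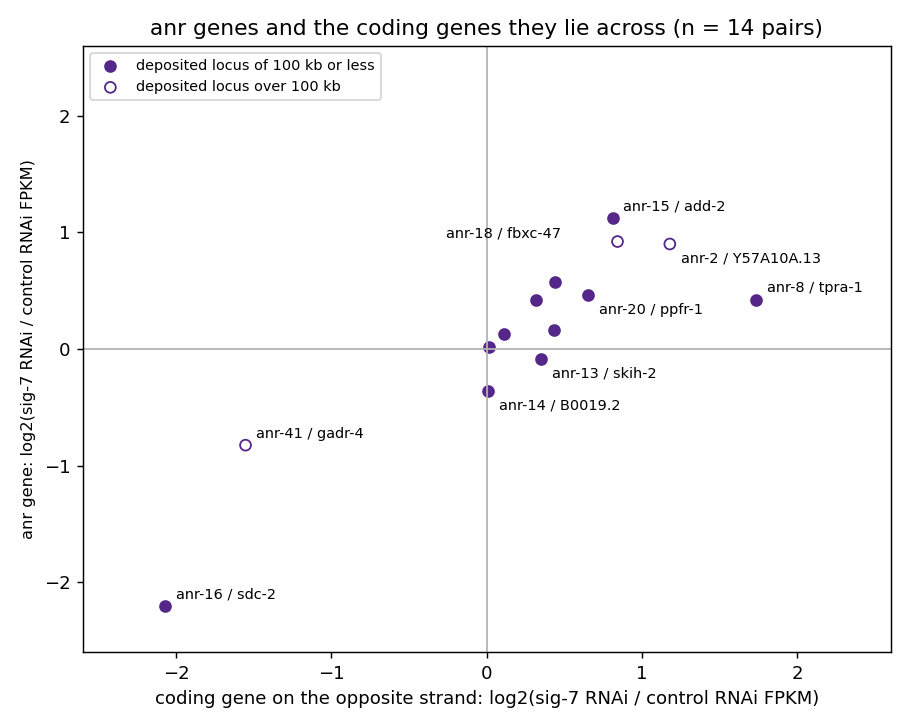
Ratios on the log2 scale (sig-7 RNAi over control) of 14 tested anr genes (vertical axis) and of the coding gene on the opposite strand (horizontal axis). Filled points are pairs in deposited loci of 100 kb or less and open points pairs in longer ones. The ratios have the same sign in 12 of 14 pairs, with anr-16 and sdc-2 at the lower left.

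The length of the deposited locus moved with the outcome of the test. In the authors' table overlapping genes can share 1 locus, and some loci run to megabases. Among all tested genes, 35.3% of those in loci of 100 kb or less passed, against 0.658% of the 2127 genes in longer loci. In the long loci 32.0% of the genes with values above 0 in both groups differed by 2-fold or more. In the classes of shorter loci that share lay between 32.0% and 45.7%. Of the tested genes described here, 10 linc and 5 anr genes lie in such long loci, and none passed. Outside them 4 of 21 linc genes and 0 of 15 anr genes passed. How far the merged loci set these q-values was not tested.

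A single locus of this kind on chromosome II (2443297 to 4279128 on ce10) held 6 tested linc genes and anr-41, and all 7 were lower in sig-7 RNAi. linc-11 was at 0.976 FPKM in sig-7 RNAi and 4.48 FPKM in control RNAi, 4.58-fold lower (q = 0.971 in the authors' deposited table). linc-8 was at 0.631 FPKM in sig-7 RNAi and 3.26 FPKM in control RNAi, linc-68 at 2.79 and 6.77 FPKM, linc-12 at 3.25 and 6.65 FPKM, and linc-17 at 4.70 and 6.53 FPKM. linc-71 was listed at 0 in sig-7 RNAi and at 1.42 FPKM in control RNAi. None of the 205 tested genes in this locus passed. Over those genes 87 had a ratio above 1 and 109 a ratio below 1, and their median log2 ratio with 1 FPKM added to each value was -0.19.

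**Figure D4:**
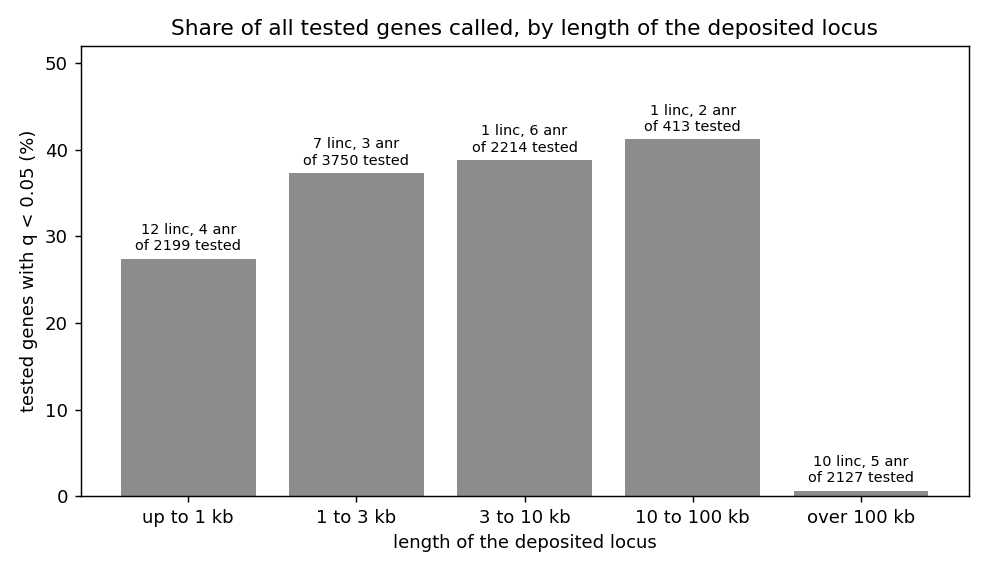
Share of all tested genes with a deposited q under 0.05 (%, vertical axis) by the length of the deposited locus (horizontal axis), with the number of linc and anr genes in each class above the bar. The share is 0.658% in loci over 100 kb, which hold 10 of the 31 tested linc genes and 5 of the 20 tested anr genes.

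With 1 FPKM added to each value, the median log2 ratio was -0.32 over the tested linc genes, 0.17 over the tested anr genes and -0.030 over all tested genes. The linc median was -0.089 without the locus on chromosome II and -1.15 over its 6 linc genes. Among tested genes above 0 in both groups, 9 linc genes had the higher value in sig-7 RNAi and 17 the lower. For anr genes the counts were 12 and 6. In loci of 100 kb or less they were 9 and 9 for linc genes and 9 and 4 for anr genes. Over all tested genes above 0 in both groups they were 5031 and 5067. The summed FPKM of all genes in sig-7 RNAi was 1.69 times that in control RNAi (776392 and 460231). Over rows annotated as protein-coding the sums were 414219 in sig-7 RNAi and 296239 in control RNAi. The ratio of the totals was thus not common to all kinds of row. With equal totals the anr median turned to -0.37, the linc median was -0.59 and that of all genes -0.55. The anr median lay above that of all genes under either scaling. Scaling to equal totals shifts all ratios alike apart from the added 1 FPKM, so that order is no separate check.

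Neighbouring genes of the tested linc genes were compared by deposited locus. Tested genes in loci of 100 kb or less were eligible, except linc and anr genes and the small piRNA genes. Of the 21 linc genes outside long loci, 16 had a tested gene of another kind within 5000 bases, and 5 of those neighbours fell while none rose in the authors' Cuffdiff test at q under 0.05; of all tested genes in loci of 100 kb or less, 21.4% fell and 13.9% rose. Besides C46F11.6 beside linc-147, these were fkh-7, a forkhead transcription factor gene (4.94 FPKM in sig-7 RNAi and 14.5 FPKM in control RNAi), 2421 bases from linc-50, and F21A9.2, K05F1.6 and W09D10.4 beside linc-9, linc-44 and linc-105. The sign of the ratio was the same for linc gene and neighbour in 9 of 14 pairs with values above 0. linc-44 and K05F1.6 had ratios of opposite sign, with K05F1.6 at 0.556 FPKM in sig-7 RNAi and 1.28 FPKM in control RNAi.

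By chromosome, linc genes were found on all chromosomes, with 32 on chromosome II and 27 on X. Of the 12 tested on chromosome II, 11 reached 1 FPKM, while none of the 5 tested on chromosome III did. Of the 4 tested linc genes on X, 2 passed the test, in opposite directions (linc-7 and linc-5), where 28.4% of all tested genes passed. So few genes give no share for the chromosome. anr genes were most numerous on V (12) and IV (11), and 2 of the 3 on X were tested, anr-16 and anr-24 (1.01 FPKM in sig-7 RNAi and 1.66 FPKM in control RNAi). Mature lengths were alike, with an annotated median of 450 bases for linc and 479 bases for anr genes, while 94 linc genes had several exons and 48 a single one, against 21 and 26 anr genes.

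Genes that process or destroy noncoding RNA were looked up as a list of 45 names, of which 32 matched a row, all tested. For most of them the higher group value was from 20 to under 100 FPKM. At that level, 39.7% of all tested genes in loci of 100 kb or less passed and 15.9% fell. Of the 32 listed genes, 9 rose, 1 fell and 22 did not pass, where 11.2% of all tested genes rose and 17.3% fell. The part of level in these counts was not tested. Among those that rose were mtr-4, the helicase of the nuclear exosome (85.4 FPKM in sig-7 RNAi and 41.4 FPKM in control RNAi, q = 5.96e-06 in the authors' deposited table), and crn-3, the counterpart of the nuclear exosome nuclease Rrp6 (74.1 and 35.4 FPKM, q = 6.17e-06). The exosome core genes crn-5, exos-3 and exos-4.2 were 1.99-fold, 1.69-fold and 1.56-fold higher in the authors' deposited table. smg-4 and smg-7 of nonsense-mediated decay were 1.92-fold and 1.71-fold higher. The polyadenylation genes cpf-1 (61.0 FPKM in sig-7 RNAi and 40.6 FPKM in control RNAi) and cpsf-2 (48.8 and 33.9 FPKM) rose as well. The ratios of exos-3, exos-4.2, cpf-1 and cpsf-2 did not exceed that of total FPKM and so turn below 1 with equal totals. That of smg-7 exceeded it only slightly. The gene that fell was pcf-11, a factor of cleavage and transcription termination, at 8.26 FPKM in sig-7 RNAi and 19.1 FPKM in control RNAi (q = 0.000338 in the authors' deposited table). The list median of the log2 ratio with 1 FPKM added was 0.32, against -0.030 for all tested genes, or -0.41 against -0.55 with equal totals, and 8 of the 32 lie in loci over 100 kb.

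Noncoding RNA genes with a name of their own did not share a direction. rncs-1, whose RNA has been shown to inhibit Dicer in C. elegans, fell 9.89-fold, at 0.253 FPKM in sig-7 RNAi and 2.51 FPKM in control RNAi (q = 0.000730 in the authors' deposited table). mrpr-1, the RNA of RNase MRP, rose 1.76-fold and stood at 5716 FPKM in sig-7 RNAi and 3239 FPKM in control RNAi (q = 0.000691 in the authors' deposited table). That ratio was only slightly above the 1.69 of total FPKM. tts-1 (0.993 FPKM in sig-7 RNAi and 2.35 FPKM in control RNAi) and rpr-1, the RNA of RNase P (6958 and 2177 FPKM), did not pass, and both lie in deposited loci over 100 kb. yrn-1 was listed at 0 in both groups. The linc and anr genes together held 0.0398% of the total FPKM in sig-7 RNAi and 0.0603% in control RNAi. Their summed FPKM was 309.1 in sig-7 RNAi and 277.5 in control RNAi, so the share was lower while the sum was not. The total FPKM in sig-7 RNAi was 1.69 times that in control RNAi.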

How the data were processed

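RNA-seq of 2 sig-7 RNAi and 2 control RNAi libraries was used, grouped by sample title. Per the submitters' processing notes the build was ce10 and the tools included TopHat2, Cufflinks 2.1.1 and Cuffdiff 2.0.2; parameters, the annotation and any strand setting were not given in the sources used here. Deposited files comprise the authors' 3 Cuffdiff tables (37812 genes, 44542 isoforms, 38916 TSS groups), each with 1 pooled FPKM per group, a p-value and a q-value, per the file headers. No library has a value of its own, so no SD, interval, or test beyond the authors' could be made. Of the gene rows, 10703 were tested.

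Members and lists were chosen with earlier results of these data known. From the deposited FPKM, ratios, medians (pseudocount 1 FPKM) and counts at q under 0.05 were computed in Python 3.11.15 and pandas 2.3.3, and the ratio was tested on simulated data. The deposited log2 ratio equalled that of the FPKM values to within 1.43e-05. Starts are given from base 1. Partners, lengths and exons came from the WBcel235 annotation by name (189 of 190 genes matched); overlaps were computed within that annotation, and none of its coordinates is printed or set against ce10. Named genes were all with q under 0.05, the 5 highest of each class by mean FPKM, and their partners or neighbours; others named were chosen after their values were seen. Alternatives were other pseudocounts, floors and q thresholds, equal totals, loci without overlap or of 100 kb or less, and the isoform and TSS tables.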

Additional observations from a re-analysis of the deposited data

Results flagged for a closer look

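In a row outside the comparisons above, linc-6 is joined to the gene F52D2.14 (chromosome X, 1982704 to 1982929 on ce10). It was at 1033 FPKM in sig-7 RNAi and 238.5 FPKM in control RNAi, far above every linc gene with a row of its own. The q was 9.48e-12 in the authors' deposited table. It drew attention as a signal in data not used in the comparisons that was higher than in control RNAi. The authors' isoform table gives linc-6 the same values, with q = 1.02e-11 in the authors' deposited table, and the locus is only 226 bases long.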

How the results depend on the processing

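No paired analysis was possible because the deposited columns are pooled per group and carry no replicate number; the replicate block and leaving out replicates were therefore not run. Of the alternatives for summary values 44 stayed close to the value reported and 20 moved. For median log2 ratios close meant within 0.1, while for counts 2 genes in place of 3 were still close. Stricter settings could not change the anr counts of 0, so part of the 44 was fixed in advance. The 4 called linc genes have 8 tested isoforms and TSS groups, of which 7 passed too. Those 7 hold the same FPKM values as the gene rows, so they add no separate support. The 1 that did not pass was an isoform of linc-5 (log2 ratio -1.13). With equal totals, where q cannot be recomputed, every sig-7 RNAi value falls by a common factor. The called linc genes that were lower therefore could not change sign. linc-7 kept its sign (log2 ratio 1.40), while the log2 ratios of rbbp-5 and ppfr-1 turned to -0.076 and -0.10. The median of the processing and decay genes was then -0.41. At q under 0.10 there were 2 linc genes higher and 1 anr gene lower, and likewise 2 and 1 in the isoform table, where linc-6 and anr-46 have rows of their own. With a floor of 5 FPKM 10 linc and 9 anr genes remained, and in loci of 100 kb or less 14 linc genes reached 1 FPKM. The linc median of -0.32 was -0.47 with a pseudocount of 0.1 or 0.01 FPKM, -0.055 with untested genes above 0 added, 0.078 for loci that overlap no other, -0.075 in loci of 100 kb or less and -0.59 with equal totals. The anr median of 0.17 was 0.29 with either smaller pseudocount, 0.0096 with untested genes, 0.36 for loci without overlap (4 genes) and -0.37 with equal totals, where that of all genes was -0.55. The cause of these shifts was not tested. The restriction to loci of 100 kb or less and the checks of single genes and of that list were chosen after seeing the data.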

Other observations

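Of the 27 rows that join a linc or anr name to another gene, 13 were tested. Of these 1 rose and 3 fell, where 11.2% of all tested genes rose and 17.3% fell. F58D2.4 with anr-31 was at 0.961 FPKM in sig-7 RNAi and 7.01 FPKM in control RNAi. Y52B11A.20 with anr-46 was at 1.49 FPKM in sig-7 RNAi and 5.41 FPKM in control RNAi, and Y53H1A.7 with anr-40 at 0.412 and 4.02 FPKM. Their q-values were 0.000505, 0.00231 and 0.0202 in the authors' deposited table. The isoform table separates these names: anr-46 alone was at 0.532 FPKM in sig-7 RNAi and 3.32 FPKM in control RNAi, with q = 0.00214 in the authors' deposited table, while anr-31 alone, at 0.961 and 2.75 FPKM, did not pass (q = 0.0977). anr-40 alone was at 0 FPKM in sig-7 RNAi and 0.127 FPKM in control RNAi and was not tested.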
